A study of Mus musculus with 16 samples.

Results

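The genes described here are 10 mouse genes of the response to amino acid shortage that the transcription factor ATF4 carries: Atf4 itself, Atf5, Ddit3, Trib3, Chac1, Sesn2, Asns, Phgdh, Psat1 and Mthfd2. They were taken by name, and all 10 were measured among 22180 genes, each by exactly 1 probe set. The RNA came from CD8 T cells sorted from the spleens of female mice (strain labelled C56BL/6) and was read on 16 arrays, in 4 groups of 4. The groups were effector cells (CD44+ CD127-) of Il4i1 KO bone marrow chimeras, effector cells of WT bone marrow chimeras, memory cells (CD44high CD127high) of Il4i1 KO bone marrow chimeras, and memory cells of WT bone marrow chimeras. Mice of all 4 groups carried leukaemia cells transplanted from Eµ-TCL1 mice, which model chronic lymphocytic leukaemia (CLL), and the cells were sorted 5 weeks after that transplantation. The labels do not name the genotype of the chimeras' recipients, whose cells outside the blood system stay, nor whether each sample is a separate animal, so p-values cover only the spread among these samples, which may be technical.

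Cells that run short of an amino acid accumulate uncharged transfer RNA, which activates the kinase GCN2 and leads to phosphorylation of the translation factor eIF2alpha. General protein synthesis then slows while the Atf4 messenger is translated more, and ATF4 protein binds DNA together with C/EBP family partners and raises genes for amino acid synthesis, amino acid uptake and transfer RNA charging. Stress in the endoplasmic reticulum reaches the same factor through the kinase PERK. Il4i1 encodes a secreted oxidase that consumes phenylalanine, tyrosine and tryptophan, so the RNA level of these genes bears on whether CD8 T cells of KO and WT chimeras differ in this response. ATF4 is controlled at translation, and arrays measure RNA only.

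The DNA element bound by ATF4 with its C/EBP partners has the core TGATGNAA. This core was looked for on both strands of RefSeq promoter windows (assembly GRCm38.p6) of 300 bases, 250 before to 50 after each start. It was found in 3 of the 10 genes, Asns, Chac1 and Trib3, and in 4.51% of all 27025 genes with a window. The stretches of Asns and Chac1 are shown because these are members whose window holds the core before the start, and the capitals mark the core on either strand. In Asns it lies 23 bases before the start and reads TGATGAAA on the gene's own strand, in a stretch at chr6:7693210-7693262 (minus strand). In Chac1 it lies on the opposite strand, 193 bases before the start, in a stretch at chr2:119351019-119351086 (plus strand). That stretch is written on the gene's own strand, where the core appears as its reverse complement, TTGCATCA.
Asns: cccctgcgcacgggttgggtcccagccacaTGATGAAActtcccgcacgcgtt
Chac1: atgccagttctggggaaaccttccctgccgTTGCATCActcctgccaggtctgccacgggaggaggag
In Trib3 the core lies after the start, at position 15, on the opposite strand. The other 7 members hold no TGATGNAA in these windows, which says nothing of elements elsewhere in those genes. Among the wider lists of the pathway, the core was found in 4 of 14 other ATF4 targets with a window (Atf3, Nupr1, Vldlr and Fgf21), in 4 of 11 genes for aminoacyl-tRNA synthetases and in 2 of 6 transporters. It was found in 1 of 16 genes of the endoplasmic reticulum list, Herpud1, and in 0 of 10 genes of the eIF2alpha module, 0 of 9 serine and folate enzymes, 0 of 10 paralogues of the members and 0 of 14 genes of amino acid sensing.

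Values are log2 expression as normalized by the authors, and differences are log2 differences with standard errors (SE) from 1 limma fit to all 16 arrays. A gene passed at a Benjamini-Hochberg adjusted p under 0.05 over all 22180 genes. The array medians lay between 4.12 and 4.22. Effector KO 4 stood apart, with correlations of 0.965 to 0.974 to the other arrays, against 0.971 to 0.994 for all pairs without it. The mean of 15 proliferation markers was low on memory KO 1 and memory KO 4, at 7.65 and 7.53, against 8.27 and 8.79 on memory KO 2 and 3 and 8.52 to 8.80 on the memory WT arrays. Of 11 markers of B and CLL cells, the mean was 4.04 to 4.46 on memory KO arrays and 4.54 to 5.23 on memory WT arrays, and Cd22 among them fell in memory KO cells (-1.04, limma adjusted p = 0.0145). Markers of CD8 T cells averaged 10.94 to 11.21 on every array. Il7r, which encodes the CD127 used in the sort, stood at 5.00 to 6.60 in effector KO samples and at 3.83 to 4.46 in effector WT samples (difference 1.65 ± 0.25 SE, limma adjusted p = 0.0183), and at 10.29 to 11.27 in all memory samples. The 1 probe set that covers Il4i1 also covers Nup62 and Il4i1b and therefore checks the knockout only in part. It read 5.90 ± 0.11 in effector KO and 5.95 ± 0.06 in effector WT cells, and 5.67 ± 0.14 in memory KO and 5.99 ± 0.06 in memory WT cells (SD, n = 4 each).

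None of the 10 genes passed the test between KO and WT, in effector cells, in memory cells or over both. Of all genes tested, 0.0541% passed in effector cells, 0.113% in memory cells and 0.194% over both subsets. At an unadjusted p under 0.05, 2 members stood out in effector cells, Ddit3 and Atf4, where 9.32% of all genes did. In memory cells 1 did, Asns, where 11.3% of all genes did, and over both subsets 2 did, Ddit3 and Atf4, where 13.9% of all genes did. The 4 arrays of KO and WT did not overlap for 1 member in effector cells, Atf4, and for 0 members in memory cells, against 4.65% and 6.49% of all genes. The difference between the subsets in their KO-WT difference passed for 0 members and for 0% of all genes, and 0 members had an unadjusted p under 0.05, where 5.84% of all genes did.

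The median difference of the members between KO and WT was 0.016 in effector cells (all genes 0.013) and 0.014 in memory cells (all genes 0.020). The intervals set a limit on what could have been missed in the measured signal. Chac1 and Trib3 lay near the array medians, and whether they lay above background was not tested, so their intervals do not bound a change of the transcript. Of the 10 intervals at 95%, 9 in effector cells and 10 in memory cells lay wholly within a change of 1 on the log2 scale in either direction. Within 0.5 lay 8 in effector cells and 6 in memory cells. Half-widths ran from 0.18 to 0.48. These are single-gene intervals, and the threshold adjusted over all genes asks for more: Ddit3 and Atf4 differed by more than their half-widths in effector cells and did not pass.

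**Figure D1:**
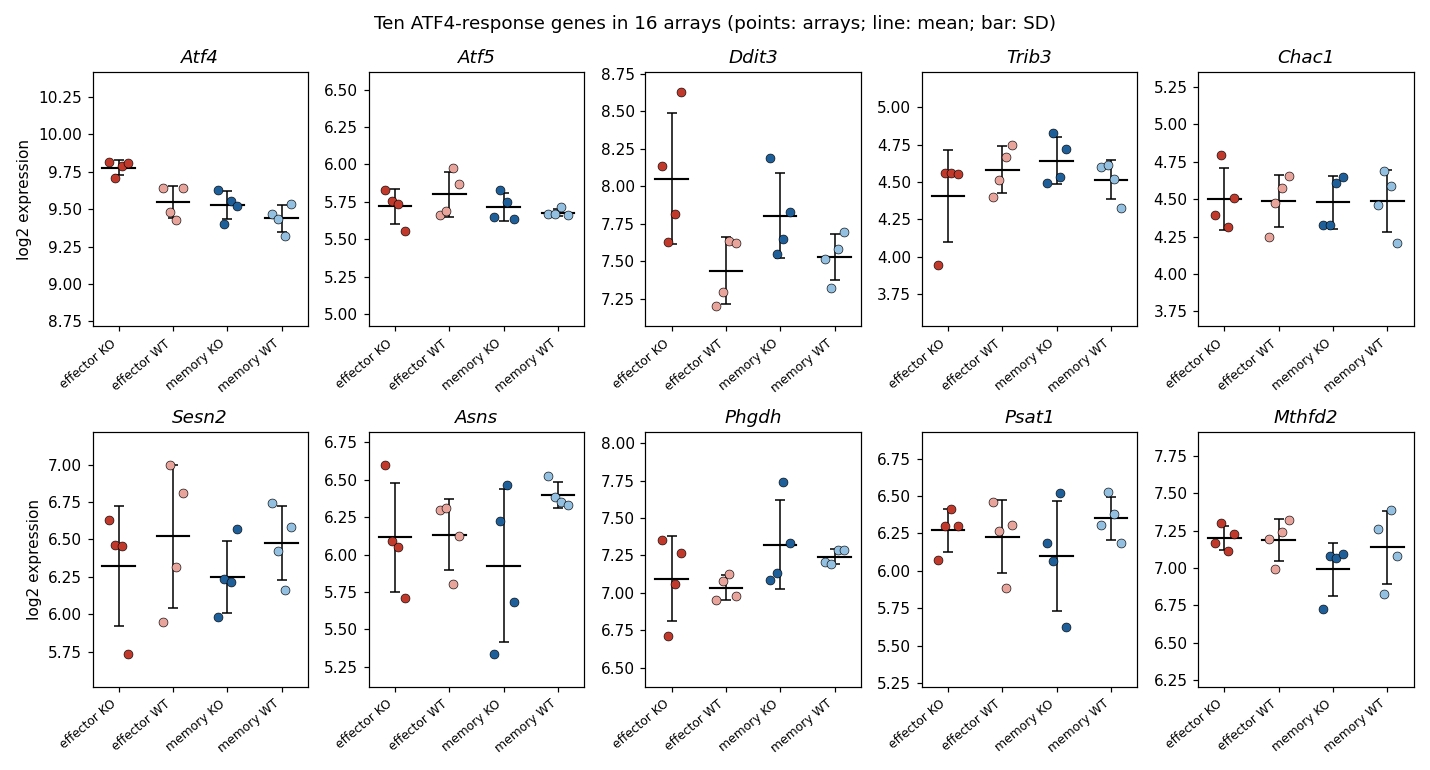
Log2 expression of the 10 genes on each of the 16 arrays, with 1 panel per gene and each y axis spanning the same number of log2 units. Points are arrays, lines are group means and bars are SD (n = 4 each). The effector KO arrays of Atf4, at 9.70 to 9.81, lie above all other groups' arrays, and Ddit3 reaches its highest value, 8.63, on effector KO 4.

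Atf4, the transcription factor of the response, read 9.81, 9.70, 9.79 and 9.81 in effector KO samples and 9.64, 9.48, 9.43 and 9.64 in effector WT samples. In memory KO samples it read 9.63, 9.40, 9.56 and 9.52, and in memory WT samples 9.46, 9.43, 9.32 and 9.53. Every effector KO array lay above every effector WT array and every memory array, while the memory groups overlapped. The KO-WT difference was 0.23 ± 0.08 in effector cells (1.17-fold, limma adjusted p = 0.472), with an interval of 0.050 to 0.41. In memory cells it was 0.090 ± 0.08 (limma adjusted p = 0.748), and over both subsets 0.16 ± 0.06 (limma adjusted p = 0.245). Atf4 was among the steadiest genes on the arrays, with a residual SD of 0.088 that lay at percentile 2.53 of all genes. Neither difference passed after adjustment, and the interaction was 0.14 ± 0.12 (limma adjusted p = 0.888).

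Ddit3 encodes CHOP, a transcription factor raised by ATF4 under prolonged stress. It read 8.14, 7.63, 7.81 and 8.63 in effector KO samples and 7.20, 7.29, 7.63 and 7.62 in effector WT samples. Memory KO samples had 8.19, 7.54, 7.65 and 7.83, and memory WT samples had 7.51, 7.32, 7.58 and 7.69. Effector KO 4 and memory KO 1 were the 2 highest of the 16 arrays, and the lowest effector KO array, at 7.63, met the highest effector WT arrays. The difference in effector cells was 0.61 ± 0.19 (1.53-fold, interval 0.21 to 1.02, unadjusted p = 0.00532) and did not pass (limma adjusted p = 0.442). It was 0.28 ± 0.19 in memory cells (limma adjusted p = 0.633) and 0.44 ± 0.13 over both subsets (1.36-fold, unadjusted p = 0.00452, limma adjusted p = 0.150). Without effector KO 4 the effector difference was 0.42 (limma adjusted p = 0.778), and without effector KO 2 it was 0.76. Over both subsets the difference was 0.35 without effector KO 4 and 0.52 without effector KO 2. Over the fits that left out 1 array, the limma adjusted p was 0.124 or more in effector cells and 0.0612 or more over both subsets. Without effector KO 4, memory KO 1 and memory KO 4, the difference was 0.068 in memory cells and 0.24 over both subsets. For Ddit3, memory KO 1 and memory KO 4 are the higher memory KO arrays, so leaving them out had to lower the memory value. Only memory KO 2 and memory KO 3 then remained. The memory value was 0.15 without memory KO 1 alone and 0.36 without memory KO 2 alone. The part of the low proliferation markers of memory KO 1 and memory KO 4 in the Ddit3 values was not tested.

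Atf5, a related factor that ATF4 raises, read 5.83, 5.75, 5.74 and 5.56 in effector KO samples and 5.66, 5.69, 5.98 and 5.87 in effector WT samples. Memory KO samples had 5.65, 5.83, 5.75 and 5.64, and memory WT samples had 5.67, 5.67, 5.71 and 5.66. All groups overlapped, and the memory WT arrays lay closest together. The KO-WT difference was -0.081 ± 0.09 in effector cells and 0.037 ± 0.09 in memory cells (limma adjusted p = 0.805 and 0.927). Atf5 lies on chromosome 7 close to the deleted gene: in RefSeq gene order it is the third protein-coding gene before Il4i1, with Nup62 and Il4i1b between them. Of 95 genes measured within 1 Mb of Il4i1, 1 rose and 1 fell in KO cells of each subset. Klk1b22, a kallikrein gene, rose (6.05 ± 0.27 in effector cells, limma adjusted p = 2.34e-09, and 5.90 ± 0.27 in memory cells, limma adjusted p = 3.43e-09). The one that fell is the next gene on the other side of Il4i1: Tbc1d17, whose product acts on Rab GTPases, read 5.69 ± 0.51 in effector KO and 6.99 ± 0.12 in effector WT cells, and 6.06 ± 0.21 in memory KO and 7.24 ± 0.11 in memory WT cells (SD, n = 4 each). Tbc1d17 fell in both subsets (-1.29 ± 0.19, limma adjusted p = 0.0117, and -1.18 ± 0.19, limma adjusted p = 0.0173). Of the 16 fits that left out 1 array, 2 in effector and 3 in memory cells lost this call, with adjusted p up to 0.0594 and 0.0863, and over both subsets (-1.24) none did. Over both subsets 1 of the 95 rose and 3 fell, with Emc10 (-0.49) and Pold1 (-0.64) beside Tbc1d17. Vrk3, the next gene beyond Atf5, was at 0.25 ± 0.10 in effector cells and did not pass (limma adjusted p = 0.496).

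Trib3 encodes a pseudokinase that binds and restrains ATF4 and CHOP. It read 3.95, 4.56, 4.56 and 4.55 in effector KO samples and 4.40, 4.52, 4.66 and 4.75 in effector WT samples. Memory KO samples had 4.49, 4.82, 4.53 and 4.72, and memory WT samples had 4.60, 4.61, 4.52 and 4.33. Only effector KO 1 lay clearly apart, below every other array and below its own array's median. Trib3 was above its array's median on 15 of 16 arrays, though by little. The differences were -0.18 ± 0.14 in effector cells, or -0.024 without effector KO 1, and 0.13 ± 0.14 in memory cells (limma adjusted p = 0.699 and 0.785). Without effector WT 1 the effector difference was -0.24. Chac1 encodes an enzyme that degrades glutathione, and it too stayed close to the array medians, with effector KO samples at 4.40, 4.79, 4.32 and 4.51 and effector WT samples at 4.25, 4.47, 4.57 and 4.65. Memory KO samples had 4.33, 4.33, 4.61 and 4.65, and memory WT samples had 4.46, 4.69, 4.59 and 4.21. Its 4 groups overlapped, with differences of 0.016 ± 0.13 in effector cells and -0.0095 ± 0.13 in memory cells (limma adjusted p = 0.980 and 0.986). Whether the probe sets of Chac1 and Trib3 lay above background was not tested.

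Sesn2 encodes a sestrin that senses leucine and restrains the growth kinase complex mTORC1. Its values were 6.63, 6.47, 6.45 and 5.73 in effector KO samples and 5.95, 7.0, 6.32 and 6.81 in effector WT samples. Memory KO samples had 5.98, 6.24, 6.21 and 6.57, and memory WT samples had 6.74, 6.42, 6.16 and 6.58. Sesn2 was the most variable member within groups, with a residual SD of 0.36 at percentile 90.4 of all genes, and all 4 groups overlapped. The differences were -0.20 ± 0.23 in effector cells and -0.23 ± 0.23 in memory cells (limma adjusted p = 0.806 and 0.764), with intervals reaching -0.68 and -0.71. Without effector KO 4 the effector difference was -0.0026, and without memory KO 1 the memory difference was -0.14. The effector difference was -0.39 without effector WT 1, and the memory difference was -0.33 without memory KO 4.

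Asns encodes asparagine synthetase, which makes asparagine from aspartate and is a textbook target of ATF4. It read 6.60, 6.09, 6.05 and 5.71 in effector KO samples and 6.30, 6.31, 5.81 and 6.12 in effector WT samples, and these groups overlapped throughout (-0.019 ± 0.22, limma adjusted p = 0.985). Memory KO samples had 5.34, 6.22, 6.47 and 5.68, and memory WT samples had 6.53, 6.39, 6.35 and 6.33. The memory WT arrays lay within a narrow band, whereas memory KO 1 and memory KO 4 lay far under it and memory KO 3 inside it. The memory difference was -0.47 ± 0.22 (1.39-fold lower in KO, interval -0.93 to -0.014, unadjusted p = 0.0441) and did not pass (limma adjusted p = 0.429). The effector and memory differences were not shown to differ (interaction 0.45 ± 0.31, limma adjusted p = 0.856). Without memory KO 1 the memory difference was -0.27, and without memory KO 3 it was -0.65. Its limma adjusted p was 0.176 or more over the fits that left out 1 array. Without effector KO 4, memory KO 1 and memory KO 4 the memory difference was -0.055. For Asns, memory KO 1 and memory KO 4 are the lower memory KO arrays, so leaving them out had to shrink the difference. Only memory KO 2 and memory KO 3 then remained. Memory KO 1 and memory KO 4 are also the arrays with the lowest proliferation markers, and the part of those cells in the Asns values was not tested. In sorted populations, fewer cells of a type and less RNA per cell cannot be told apart.

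**Figure D2:**
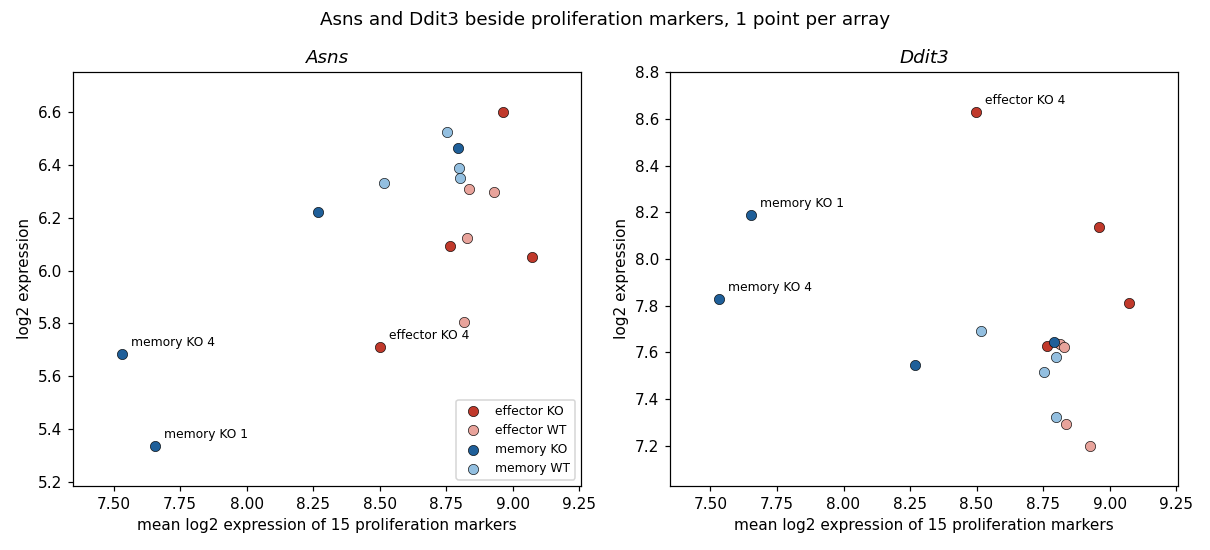
Log2 expression of Asns (left) and Ddit3 (right) on the y axis against the mean log2 expression of 15 proliferation markers on the x axis, with 1 point per array coloured by group. Memory KO 1 and memory KO 4, at 7.65 and 7.53 on the x axis, hold the lowest and the second lowest Asns values, 5.34 and 5.68, and effector KO 4 holds the highest Ddit3 value, 8.63.

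Phgdh, Psat1 and Mthfd2 make serine and pass its carbon into the folate pool, Phgdh and Psat1 as enzymes of serine synthesis and Mthfd2 in mitochondria. Phgdh read 7.35, 6.71, 7.06 and 7.27 in effector KO samples and 6.95, 7.08, 7.13 and 6.98 in effector WT samples. Its memory KO values were 7.08, 7.13, 7.74 and 7.33, against memory WT values of 7.21, 7.19, 7.28 and 7.29. The KO arrays spread more widely than the WT arrays in both subsets and enclosed them, with differences of 0.061 ± 0.14 in effector cells and 0.079 ± 0.14 in memory cells (limma adjusted p = 0.915 and 0.893). Psat1 had 6.07, 6.30, 6.41 and 6.30 in effector KO samples and 6.46, 6.27, 5.89 and 6.30 in effector WT samples. In memory cells it had 6.19, 6.06, 6.52 and 5.63 in KO samples and 6.31, 6.53, 6.38 and 6.19 in WT samples. Its lowest array was memory KO 4, and the groups overlapped (0.042 ± 0.16 in effector cells, -0.25 ± 0.16 in memory cells, limma adjusted p = 0.952 and 0.601). Without memory KO 4 the memory difference of Psat1 was -0.094, and without memory KO 3 it was -0.39. Mthfd2 had 7.17, 7.30, 7.11 and 7.23 in effector KO samples and 7.19, 6.99, 7.24 and 7.32 in effector WT samples. In memory cells it had 6.73, 7.08, 7.07 and 7.09 in KO samples and 7.26, 6.82, 7.39 and 7.08 in WT samples. These groups overlapped as well (0.017 ± 0.12 in effector cells, -0.15 ± 0.12 in memory cells, limma adjusted p = 0.975 and 0.709). The memory difference was -0.058 without memory KO 1 and -0.25 without memory WT 2.

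**Figure D3:**
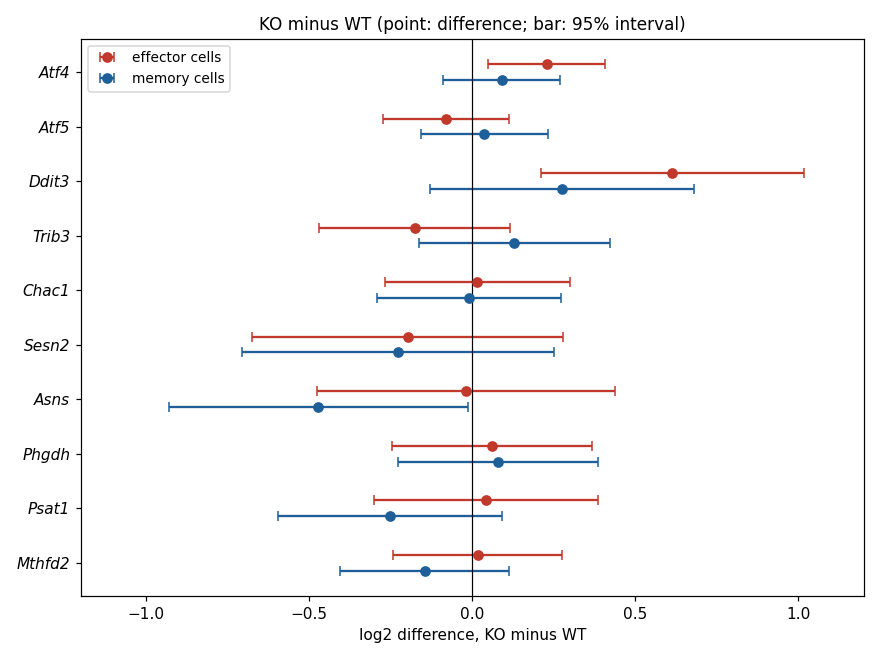
Differences between KO and WT (x axis, log2, KO minus WT) for the 10 genes in effector cells (red) and memory cells (blue), with 95% intervals from the limma fit. The interval lies wholly above 0 for Atf4 and Ddit3 in effector cells and wholly below 0 for Asns in memory cells, and none of these passed after adjustment.

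Between effector and memory cells the array found many differences, and again none of the 10 genes passed. Of all genes, 7.43% passed between effector KO and memory KO cells and 3.22% between effector WT and memory WT cells. At an unadjusted p under 0.05, 1 member (Atf4) stood out in KO cells and 0 in WT cells, against 20.5% and 14.1% of all genes. Groups without overlap were found for 2 members in KO cells, Atf4 and Mthfd2, and for 2 in WT cells, Asns and Phgdh, against 10.2% and 13.2% of all genes. Both comparisons ask whether the response differs between the subsets, and each uses its own arrays.

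Atf4 came nearest, at 0.25 ± 0.08 between effector KO and memory KO cells (1.19-fold, unadjusted p = 0.00921, limma adjusted p = 0.0869), against 0.11 ± 0.08 between effector WT and memory WT cells (limma adjusted p = 0.647). It passed in KO cells when only genes above the median were tested (limma adjusted p = 0.0460) and with a trended, robust spread (limma adjusted p = 0.0427). Mthfd2 was 0.21 ± 0.12 higher in effector KO than in memory KO cells (limma adjusted p = 0.369), and its lowest effector KO array, at 7.11, lay just above the highest memory KO array, at 7.09. Without memory KO 1 it was 0.12. In WT cells the difference of Mthfd2 was 0.048 ± 0.12 (limma adjusted p = 0.926).

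Asns was lower in effector WT than in memory WT cells on every array, 5.81 to 6.31 against 6.33 to 6.53, at -0.26 ± 0.22 (limma adjusted p = 0.679), and at -0.15 without effector WT 3. In KO cells the sign was opposite and the arrays overlapped (0.19 ± 0.22, limma adjusted p = 0.703). Phgdh was lower in effector than in memory cells in both genotypes, at -0.23 ± 0.14 in KO cells (limma adjusted p = 0.425) and -0.21 ± 0.14 in WT cells (limma adjusted p = 0.603). Only the WT arrays of Phgdh did not overlap, 6.95 to 7.13 in effector and 7.19 to 7.29 in memory cells. For Ddit3 the differences were 0.25 ± 0.19 in KO and -0.090 ± 0.19 in WT cells, and for Trib3 -0.24 ± 0.14 in KO and 0.069 ± 0.14 in WT cells (limma adjusted p = 0.528, 0.908, 0.368 and 0.900). In KO cells the difference of Ddit3 was 0.056 without effector KO 4, that of Trib3 -0.085 without effector KO 1 and that of Phgdh -0.087 without memory KO 3. The remaining 4 members, Atf5, Chac1, Sesn2 and Psat1, lay between -0.12 and 0.17 in both genotypes, with limma adjusted p of 0.623 or more. Over the 10 genes the median difference was 0.12 in KO cells (all genes 0.0092) and 0.021 in WT cells (all genes 0.0079).

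**Figure D4:**
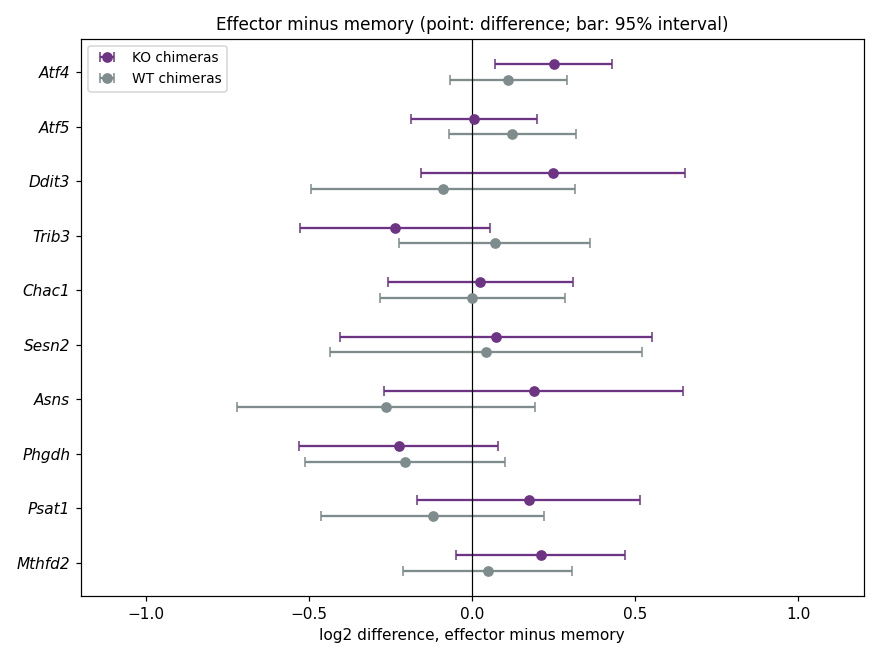
Differences between effector and memory cells (x axis, log2, effector minus memory) for the 10 genes in KO chimeras (purple) and WT chimeras (grey), with 95% intervals from the limma fit. The interval of Atf4 in KO chimeras, 0.071 to 0.43, is the one that does not cross 0.

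The order of the 4 group means differed from gene to gene. Atf4 ran from effector KO (9.78 ± 0.05) through effector WT (9.55 ± 0.11) and memory KO (9.53 ± 0.09) to memory WT (9.44 ± 0.09, SD, n = 4 each). Ddit3 ran from effector KO (8.05 ± 0.44) through memory KO (7.80 ± 0.28) and memory WT (7.53 ± 0.16) to effector WT (7.44 ± 0.22). Asns ran from memory WT (6.40 ± 0.09) through effector WT (6.13 ± 0.24) and effector KO (6.11 ± 0.37) to memory KO (5.93 ± 0.51). For these 3 genes, and for the other 7, no difference between 2 groups of the same subset or the same genotype passed. Neighbours in these orders were thus not shown to differ beyond their spread, and groups that differ in both subset and genotype were not compared.

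Genes whose values ran most like a member's over the 16 arrays are given as a description, since all arrays share their groups and the arrays that stand apart. Ddit3 ran most like Zbp1, a sensor of nucleic acids that can start cell death (Pearson r = 0.945), and then like Arid3b and Dtx1 (0.916 and 0.911). The value for Zbp1 was 0.899 without effector KO 4, memory KO 1 and memory KO 4. Asns ran most like Il1r2, a decoy receptor for interleukin 1, and Sox4, a transcription factor (0.914 and 0.907), and these were 0.766 and 0.832 without the 3 arrays. Atf4 ran most like Dxo, an RNA decapping enzyme (0.891), and Phgdh most like Nfya, a CCAAT-binding factor (0.808). For Mthfd2 the olfactory receptor gene Olfr63 came first (0.8425) and Tyms, which uses the folate carbon for thymidylate, next (0.8421). The highest value was 0.896 for Trib3 (C77080), 0.848 for Atf5 (H2ac12), 0.783 for Sesn2 (Zfp974), 0.780 for Psat1 (Ccdc122) and 0.773 for Chac1 (Npffr2). These partners and Olfr63 averaged 1.90 to 3.90, below the lowest array median of 4.12. Each value is the highest found among all genes searched, so no link between the genes is read from it.

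The wider pathway was followed in 8 lists of 111 further genes. Within effector cells and within memory cells, 0 of the 111 passed between KO and WT, and 11 and 13 had an unadjusted p under 0.05, shares of 9.91% and 11.7% that lie near those of all genes. The interaction passed for 0 of them. Over both subsets 1 passed, Slc1a5 (0.901%, against 0.194% of all genes). The list medians between KO and WT over both subsets lay at or below -0.016 for each of the 8 lists, where that of all genes was 0.018. The lists share some genes. In each of the 8 lists effector KO 4 had the lowest mean of the effector KO arrays. For the aminoacyl-tRNA synthetases it was 7.90, against 8.32 to 8.35 on the other effector KO arrays. For the endoplasmic reticulum list it was 7.75, against 8.18 to 8.19. The part of this array in the list medians was not tested.

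Slc1a5 encodes ASCT2, a glutamine transporter. Its brighter probe set read 9.51, 9.82, 9.65 and 9.82 in effector KO samples and 10.14, 10.05, 10.06 and 10.08 in effector WT samples. In memory cells it read 9.38, 9.39, 9.33 and 9.44 in KO samples and 9.73, 9.63, 9.57 and 9.81 in WT samples. The KO arrays lay below the WT arrays in both subsets without overlap, and Slc1a5 fell over both (-0.34 ± 0.06, limma adjusted p = 0.0320). Within effector cells the difference was -0.38 ± 0.09 and within memory cells -0.30 ± 0.09, neither past the threshold (limma adjusted p = 0.285 and 0.216). A second probe set of the gene did not share this: it averaged 5.66 ± 0.61 in effector KO and 5.15 ± 0.01 in effector WT cells, and 5.52 ± 0.19 in memory KO and 5.34 ± 0.25 in memory WT cells (SD, n = 4 each). With the mean of both probe sets the difference was 0.0012 ± 0.10 (limma adjusted p = 0.996), and the call was lost in 11 of 16 fits that left out 1 array, with adjusted p up to 0.0925. Slc1a5 lies on chromosome 7, as do Il4i1 and Atf5, but is not among the genes within 1 Mb of Il4i1.

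Among the other transporters, Slc7a5, the light chain of the large neutral amino acid transporter that carries phenylalanine, tyrosine and tryptophan, was at 0.42 ± 0.15 in effector cells and 0.33 ± 0.15 in memory cells and did not pass (limma adjusted p = 0.472 and 0.429). Of the eIF2alpha kinases and the phosphatase module, 0 of 13 passed between KO and WT. Ppp1r15a, which encodes GADD34, the subunit that directs removal of the phosphate from eIF2alpha, read 8.33, 7.71, 7.67 and 7.93 in effector KO samples and 7.42, 6.65, 6.83 and 7.46 in effector WT samples. These groups did not overlap (0.82 ± 0.31, limma adjusted p = 0.472). Ppp1r15a is also among the genes within 1 Mb of Il4i1 on chromosome 7, 49 protein-coding genes from it. Eif2ak3, which encodes PERK, was at -0.85 ± 0.27 in effector cells (limma adjusted p = 0.442) and at -0.50 without effector KO 4, whose value of 4.46 was the lowest. Among other ATF4 targets, Atf3 was at 0.34 ± 0.13 in effector cells (limma adjusted p = 0.480), and 0 of 18 passed. In the list of endoplasmic reticulum chaperones and the unfolded protein response, 0 of 19 passed, and Ern1, which encodes the stress sensor IRE1, came nearest over both subsets (-0.52 ± 0.10, limma adjusted p = 0.0549).

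**Figure D5:**
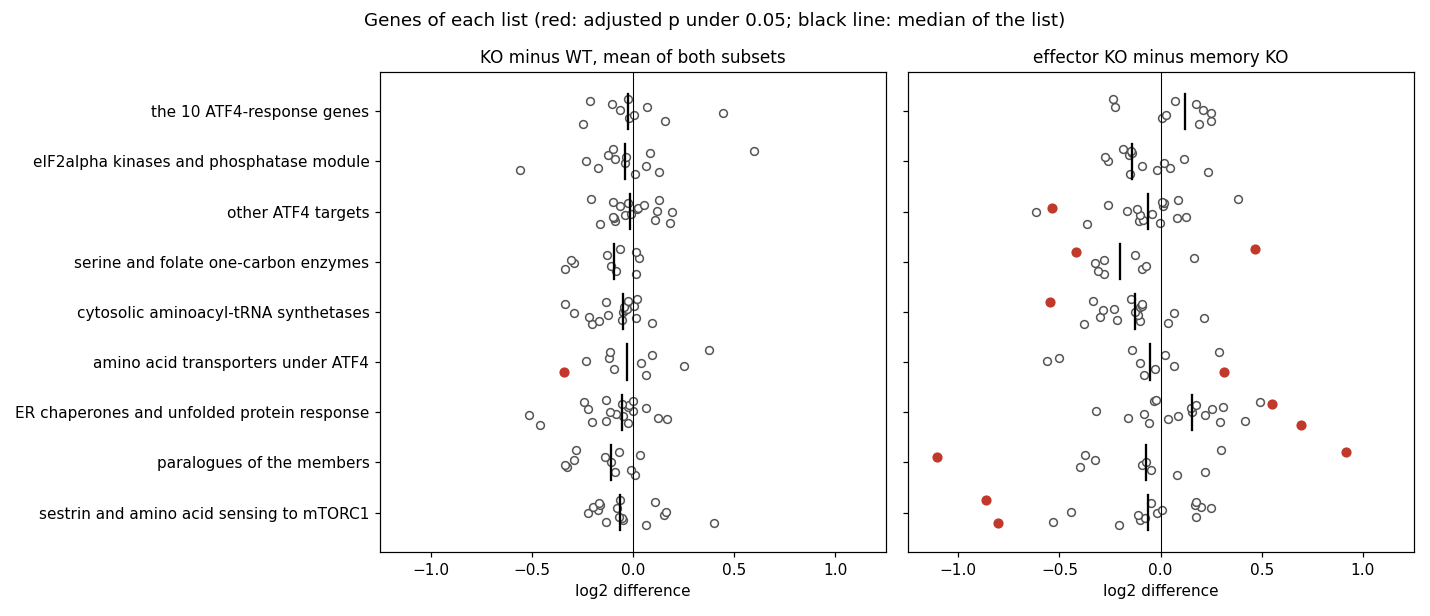
Log2 differences of each gene in the 10-gene set and the 8 wider lists, between KO and WT over both subsets (left) and between effector KO and memory KO cells (right). Red points passed at an adjusted p under 0.05, white points did not, and black lines are list medians. On the left the single red point is Slc1a5 at -0.34, and on the right the red points run from Sesn1 at -1.11 to Trib1 at 0.92, with none among the 10 genes.

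Between effector KO and memory KO cells 11 of the 111 genes passed, 5 higher and 6 lower in effector cells. This is 9.91%, against 7.43% of all genes, and nothing particular to the lists is read from it. Trib1, a pseudokinase related to Trib3, rose in effector KO cells (0.92 ± 0.20, limma adjusted p = 0.0101), with arrays at 6.57, 6.23, 6.79 and 6.33 in effector KO and 5.12, 5.69, 6.19 and 5.27 in memory KO cells. Sesn1, a sestrin related to Sesn2, fell (-1.11 ± 0.32, limma adjusted p = 0.0468), but effector KO 4 at 3.63 carried much of it. Without that array Sesn1 was at -0.69 (limma adjusted p = 0.0671). In the amino acid sensing list Castor1, an arginine sensor, fell (-0.80 ± 0.20, limma adjusted p = 0.0234), as did Wdr59, a part of the GATOR2 complex (-0.86 ± 0.24, limma adjusted p = 0.0370, and -0.52 without effector KO 4).

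In the serine and folate list, 1 of 10 rose and 1 fell in effector KO cells. Shmt2, the mitochondrial enzyme that feeds Mthfd2, fell (-0.42 ± 0.12, limma adjusted p = 0.0421), and Tyms rose (0.47 ± 0.13, limma adjusted p = 0.0406). Klhl24, an ATF4 target, fell (-0.54 ± 0.11, limma adjusted p = 0.00499) and, like Trib1, kept passing whichever array was left out. Vars, the valyl-tRNA synthetase, fell (-0.55 ± 0.13, limma adjusted p = 0.0173), 1 of 17 in its list. The stress sensor gene Atf6 (0.69 ± 0.18, limma adjusted p = 0.0251) and the disulphide isomerase gene Pdia6 (0.55 ± 0.14, limma adjusted p = 0.0271) rose, 2 of 19 in theirs. Slc1a5 rose in effector KO cells by its brighter probe set (0.31 ± 0.09, limma adjusted p = 0.0389). Of the 16 fits that left out 1 array, the call was lost in 13 for Tyms and Sesn1, in 11 for Shmt2 and Slc1a5, in 5 for Atf6, Pdia6 and Wdr59, in 4 for Castor1 and in 1 for Vars, that without memory KO 4 (-0.53, limma adjusted p = 0.0544). Without effector KO 4, memory KO 1 and memory KO 4 Pdia6 still passed (0.57, limma adjusted p = 0.0255), the other 10 genes did not, and Klhl24 was then at -0.51 (limma adjusted p = 0.0516). Proliferation markers differed in the same comparison, of which 7 of 15 rose in effector KO cells, and Tyms is itself 1 of these 7. Genes on the marker lists of other cell types differed as well, and whether their RNA came from other cells or from the CD8 T cells was not tested. Of the myeloid list 2 of 12 fell (Csf1r -1.03, Mpeg1 -0.97) and 1 rose (Cd68 0.74), and of the NK list 1 of 5 fell (Klrb1c -1.89) and 1 rose (Eomes 0.55). Of the B and CLL list 1 of 11 fell (Cd79b -1.10), and of the CD4 and regulatory T cell list 1 of 6 rose (Ctla4 1.14). The part of any of these in the calls was not tested.

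Between effector WT and memory WT cells 4 of the 111 passed, 3.6%, near the 3.22% of all genes. Nars, the asparaginyl-tRNA synthetase, fell (-0.39 ± 0.09, limma adjusted p = 0.0177), with every effector WT array at 9.62 or lower and every memory WT array at 9.86 or higher. Castor1 fell (-0.81 ± 0.20, limma adjusted p = 0.0378), although memory WT 2, at 5.90, lay among the effector WT arrays. Eif4ebp1, an ATF4 target that restrains translation, fell (-0.77 ± 0.20, limma adjusted p = 0.0456, and -0.56 with limma adjusted p = 0.131 without effector WT 4). Slc1a5 rose by its brighter probe set (0.40 ± 0.09, limma adjusted p = 0.0190). Leaving out 1 array lost the call of Eif4ebp1 in 11 of 16 fits, of Castor1 in 7, and of Nars and Slc1a5 in 3 each. In this comparison 0 of 15 proliferation markers passed, while 8 of 11 markers of B and CLL cells fell in effector WT cells, as did 3 of 12 myeloid markers (Mpeg1 -1.87, Lyz2 -1.35 and Csf1r -0.99) and Il2ra (-0.65), 1 of 6 in the CD4 and regulatory T cell list. Which cells the RNA of these listed genes came from, and their part in the 4 calls, was not tested.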

How the data were processed

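The file the authors deposited holds 41345 probe sets by 16 arrays (1-colour Affymetrix). Per the labels, 1 ng of total RNA was labelled with the GeneChip WT Pico kit. The deposited values are read here as log2 and were already normalized by the authors. How they were normalized, and the log base, is not given in the sources used here; a range of 0.7365 to 14.0453 led to reading them as log2. Precision is limited by the number of arrays.

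Probe sets with exactly 1 gene symbol in the platform annotation were used (23521), the one with the highest mean per gene. A 4-group model was fitted to all arrays at once in limma (version 3.58.1, R 4.3.3; 12 residual degrees of freedom), with 6 two-sided comparisons and Benjamini-Hochberg adjustment over 22180 genes. The fit was tested on simulated data with independent noise and no array that stands apart, which differs from these arrays. Promoter windows and gene order came from RefSeq (GRCm38.p6), where all 10 members matched by gene ID.

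The members and the gene lists were chosen with earlier results of these data known. All 10 members are named, with, per list and comparison, up to 4 genes that passed, or the 2 with the smallest p, and further genes chosen after their values were seen. Likeness is Pearson's r over 16 arrays, excluding predicted genes. Alternatives covered array scaling, filtering, probe sets, spread, array weights, the replicate block, the samples fitted and each array left out. The fit without effector KO 4, memory KO 1 and memory KO 4 was added after seeing the data.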

Additional observations from a re-analysis of the deposited data

Results flagged for a closer look

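The values of each of the 10 genes within each group of 4 were searched for an array far from the others, 40 groups in all, of which chance alone marks about 1 in 20. There were 3 such arrays. Trib3 was at 3.95 on effector KO 1, with the remaining 3 arrays of that group at 4.55 to 4.56. Mthfd2 was at 6.73 on memory KO 1, while the other memory KO arrays lay between 7.07 and 7.09. Atf5 was at 5.71 on memory WT 3, while the other memory WT arrays lay between 5.66 and 5.67, a gap that is small beside the spread of Atf5 in the other groups.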

How the results depend on the processing

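In every alternative run, 0 of the 10 genes passed in any of the 6 comparisons, except 1 (Atf4) between effector KO and memory KO cells when only genes above the median were tested and 1 (Atf4) with a trended, robust spread. Over 1510 repeats of the 60 member differences, 84 changed sign and 14 moved by over 1 SE. The call of Slc1a5 over both subsets turned to 0.0012 with the mean of its probe sets. Leaving out each array in turn gave 4 to 42 genes called in effector KO against WT cells (12 with all arrays), 11 to 249 in memory KO against WT cells (25), 23 to 329 over both subsets (43), 0 to 5 for the interaction (0, where 1296 genes had an unadjusted p under 0.05), 961 to 2044 between effector KO and memory KO cells (1649) and 359 to 1037 between effector WT and memory WT cells (715). Fits to only the 8 arrays compared called 4, 7, 600 and 1320 genes in the 4 pairwise comparisons. The cause of these shifts was not tested.

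The replicate numbers are shared across groups, but not every same-numbered pair deviated together: correlations between effector KO and memory KO arrays were 0.018, 0.12, 0.15 and 0.14, and between effector WT and memory WT arrays 0.087, 0.24, 0.14 and 0.13. With the replicate block 0 members passed in each comparison, and 29, 104, 0, 389, 1808 and 757 genes passed in all. With the block set within genotype, 1824 genes passed between effector KO and memory KO cells and 794 between effector WT and memory WT cells. Of the WT samples every effector array correlated best with its own number. Of the KO samples effector KO 2, 3 and 4 did so too, and effector KO 1 did not. Across genotypes, effector KO 1 and effector KO 2 also correlated best with their own number among the effector WT arrays, and effector KO 3 and effector KO 4 did not. All these matches are a hint from the data only. With 4 arrays a group and RNA amplified from 1 ng, the members' single-gene intervals, and the wider margin that adjustment over all genes asks for, limit what could be detected.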
